A study of Mus musculus with 4 samples.

Results

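The cytochrome P450 enzymes of the kidney were described across 4 arrays of mouse kidney RNA. Members were all genes whose probe sets carry a single symbol built as Cyp, family number, subfamily letters and gene number, without Cyp27b1 and Cyp24a1. The rule used names and no measured value, but it was chosen with earlier results of these data known. It gave 68 genes with 90 probe sets, of 18193 genes with a single symbol and 45037 probe sets in all. The groups were wild-type mice after sham surgery, wild-type mice after 60 min of kidney ischemia and 24 h of reperfusion, and mice labelled Tet2KO under the same 2 treatments. All mice were male and of the C57Bl/6 strain, housed free of specific pathogens. The labels give no age, no allele and no promoter for the knockout. Each group was 1 array with RNA pooled from 3 mice, so mice cannot be separated, no spread between mice is known, and no difference below has a replicate check or a test.

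P450 enzymes are haem proteins that insert an oxygen atom into fatty acids, sterols, retinoids, steroid hormones and foreign compounds. Most sit in the endoplasmic reticulum and draw electrons from P450 reductase, and a few sit in mitochondria and use ferredoxin. In kidney the tubules carry most of them: Cyp4a enzymes hydroxylate the end of the fatty acid chain, Cyp2j and Cyp2c enzymes make epoxides of arachidonic acid, and several genes depend on androgen in male mice. Cyp4a genes are classic targets of PPAR alpha, a receptor for fatty acids.

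Values are log2 signals, given in the order wild-type sham, wild-type ischemia-reperfusion, knockout-labelled sham and knockout-labelled ischemia-reperfusion. Signals below 5.72, the 40th percentile of all signals, were raised to that floor before a log2 ratio was taken. A gene was measured in a comparison where at least 1 of its arrays reached the floor, and a change of 2-fold or more in either direction was called. Of the 68 members 30 were over the floor on all 4 arrays, 15 on 1 to 3 arrays and 23 on none. As a technical yardstick, log2 ratios of different probe sets of the same gene were compared over all genes. Their SD, the technical SD below, was 0.24 for wild-type ischemia-reperfusion over sham and 0.39 for the knockout-labelled pair. It was 0.19 between the sham arrays and 0.32 between the ischemia-reperfusion arrays. Over the 8 or 9 P450 genes with such probe sets the SD was 0.24, 0.45, 0.21 and 0.46 in the same order. Both SDs leave out the differences between mice. A signal of one gene is compared with other arrays, not with another gene as an amount, because probe sets differ in their binding. Summed signals of a list add different genes, so its brightest probe sets weigh most. The highest signal on the arrays is named only to mark the top of the signal range.

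The arrays differed in more than the treatment. Tet2 had log2 signals of 9.96, 9.16, 9.87 and 8.74 on one probe set and 9.84, 9.30, 10.25 and 8.60 on the other, so the 2 sham arrays differed by -0.09 and 0.41, knockout-labelled minus wild type, and whether these probe sets lie in the deleted part is not known here. The groups are therefore called knockout-labelled. Markers of kidney tubules were present: the proximal tubule list had 12 of 12 genes over the floor on every array. Its linear signals summed to 140055, 113024, 141499 and 76728 in the 4 arrays, and 2 of its 12 genes were lower at 2-fold after ischemia-reperfusion in wild type and 7 of 12 in the knockout-labelled pair. Of 4 fat genes read, all were over the floor in wild-type sham and in knockout-labelled ischemia-reperfusion and 3 of 4 were below it on each of the other arrays, with summed linear signals of 6792, 584, 1422 and 9493. Of 5 adrenal cortex markers read, Star, Nr5a1 and Fdx1 were over the floor on all 4 arrays and Hsd3b1 and Mc2r below it on all 4, and none passed 2-fold in either pair. The tubular injury list had 3 of 5 genes higher in wild type and 5 of 5 in the knockout-labelled pair. Over all genes 2.06% were higher and 2.18% lower in wild type, and 6.06% and 6.89% in the knockout-labelled pair. The part of these differences in the P450 results was not tested, and in whole-kidney RNA fewer cells of a type and less RNA per cell cannot be told apart.

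After ischemia-reperfusion in wild type 3 P450 genes were higher and 4 lower of 42 measured. Cyp4a14, Cyp2s1 and Cyp4a31 were the higher ones, and Cyp7b1, Cyp1b1, Cyp2j13 and Cyp2j11 the lower ones. Over all 13531 genes measured in that pair 2.06% were higher and 2.18% lower, against 7.14% and 9.52% of the P450 genes. In the knockout-labelled pair 3 of 44 were higher, namely Cyp4a14, Cyp4v3 and Cyp2s1, and 8 were lower: Cyp7b1, Cyp2j11, Cyp2d26, Cyp2d9, Cyp2j13, Cyp39a1, Cyp2j5 and Cyp2d12. The share of P450 genes higher, 6.82%, was near the 6.06% of all genes, while 18.2% were lower against 6.89%. Cyp7b1, Cyp2j11 and Cyp2j13 were lower in both pairs, and Cyp4a14 and Cyp2s1 higher in both. Each of these genes was over the floor on all 4 arrays, so no fold among them is a bound. The medians over all measured members stayed near 0, at -0.07 in wild type and -0.15 in the knockout-labelled pair, beside 0.02 and -0.02 over all genes.

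**Figure D1:**
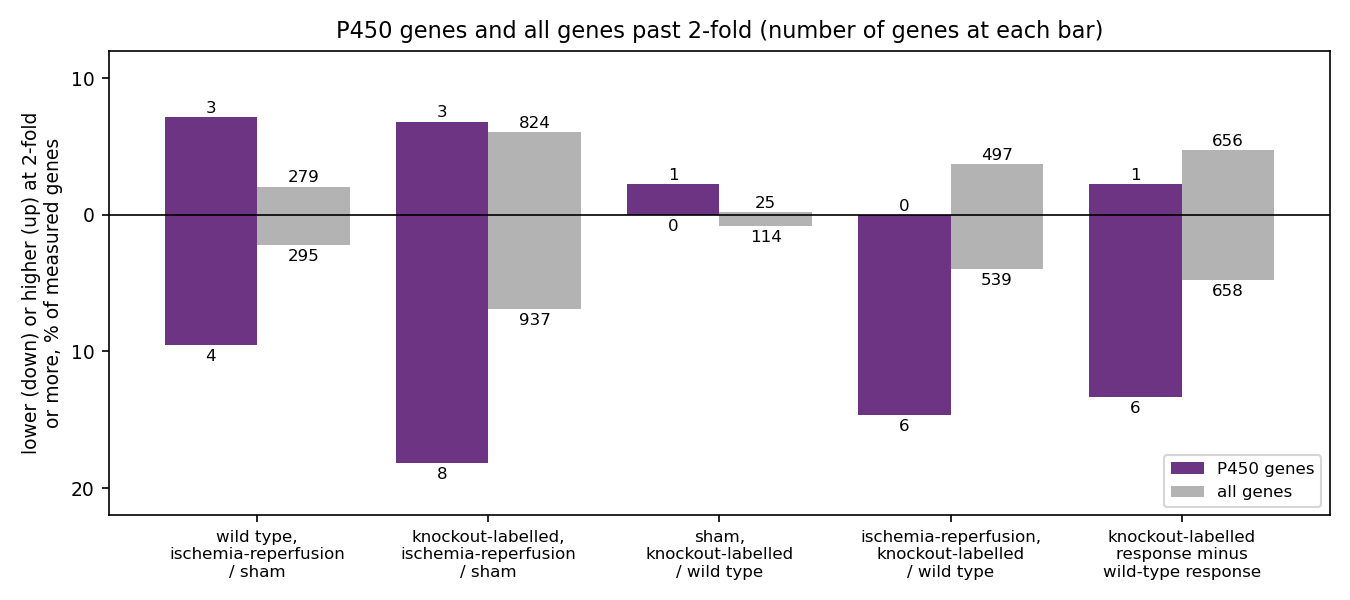
Share of measured genes at 2-fold or more in 5 comparisons, with higher genes drawn up and lower genes drawn down, in percent; purple bars are P450 genes, grey bars all genes, and the number at each bar is the count of genes. In the knockout-labelled pair 8 P450 genes were lower and 3 higher, and between the ischemia-reperfusion arrays 6 were lower and 0 higher.

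Between the sham arrays 1 member of 44 was higher and 0 lower at 2-fold; of all genes 0.186% were higher and 0.846% lower. That member was Cyp4a31. Between the ischemia-reperfusion arrays 0 of 41 members were higher in the knockout-labelled array and 6 were lower, beside 3.68% and 3.99% of all genes. Those 6 were Cyp7b1, Cyp2d9, Cyp4a14, Cyp2j11, Cyp2d12 and Cyp2d26. Cyp27b1, which the naming rule leaves out, was higher by at least 5.64 on the log2 scale in that comparison. For the difference of the responses, knockout-labelled minus wild type, 1 of 45 members was at 2-fold or more above 0 and 6 below, beside 4.75% and 4.77% of all genes. Above was Cyp26b1, and below were Cyp7b1, Cyp4a14, Cyp2d9, Cyp2j11, Cyp2d26 and Cyp4a31. These comparisons reuse the same 4 arrays and are not independent of each other.

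The responses of the genotypes were alike in order and unlike in level. Over the 30 members above the floor on all arrays, the log2 ratios of the 2 pairs, which have no array in common, had a Pearson r of 0.70 and a Spearman rho of 0.67. Without Cyp4a14 and Cyp7b1, the outermost points, r was 0.58 over 28 genes. This is a correlation across genes of the same 4 arrays, and genes are not replicates. It was not taken over all genes, so whether it is particular to the P450 genes is not known. The knockout-labelled response was below the wild-type response for 24 of these 30 genes and above it for 6. That is 80% of them, and it was 54.2% of the 12446 genes over the floor on all arrays. The median of the difference was -0.38 for the P450 genes and -0.04 for all genes. It was -0.77 for 12 proximal tubule genes and -1.29 for 4 genes of the loop of Henle and distal tubule. For 4 endothelial genes it was 1.05. A lower knockout-labelled response was thus also seen in tubule genes outside the P450 family.

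**Figure D2:**
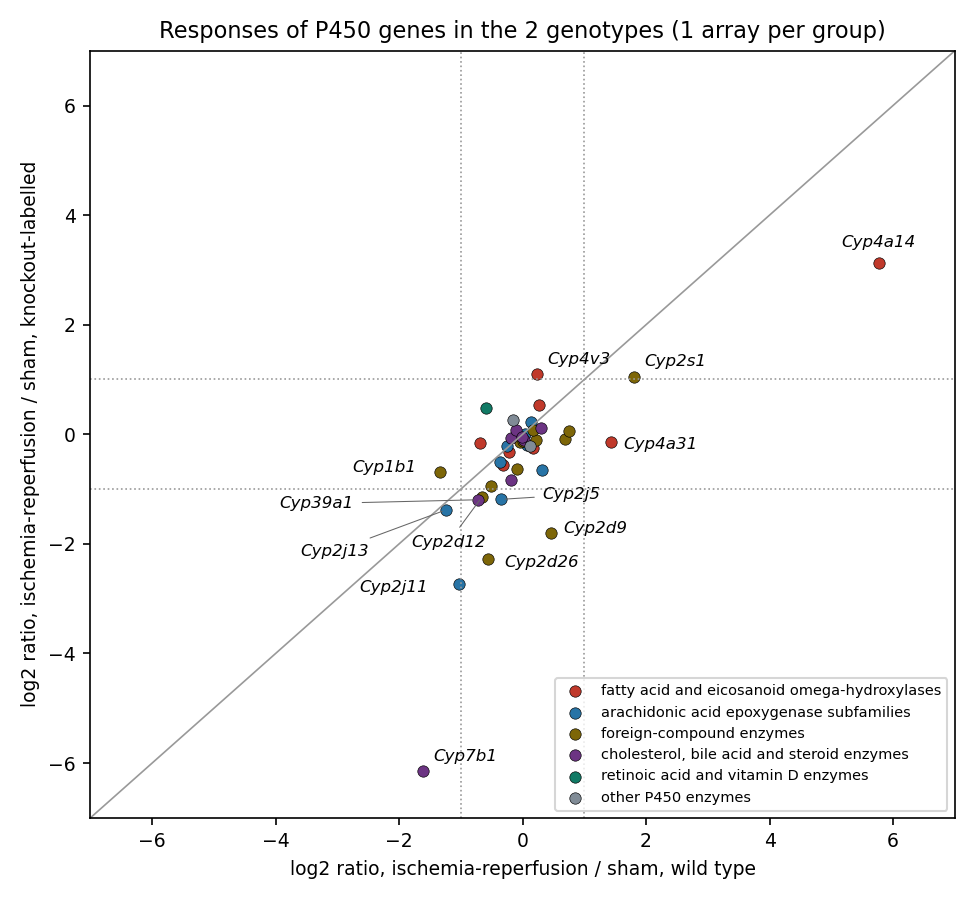
Log2 ratio of ischemia-reperfusion to sham in wild type (horizontal axis) and in the knockout-labelled pair (vertical axis), 1 point per P450 gene measured in both, coloured by role. Dotted lines mark 2-fold and the diagonal marks equal responses; Cyp4a14 lies at 5.77 and 3.12 and Cyp7b1 at -1.62 and -6.14, and most named genes lie below the diagonal.

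Among the Cyp4 enzymes, which hydroxylate fatty acids and eicosanoids at the far end of the chain, 11 members were read and 8 measured. Cyp4a14, a fatty acid hydroxylase that rises with fasting and with PPAR alpha ligands, had log2 signals of 7.73, 13.51, 8.57 and 11.69. Both ischemia-reperfusion arrays lay above both sham arrays, and the wild-type array lay highest. The ratios to sham were 5.77, or 54.7-fold, in wild type and 3.12, or 8.71-fold, in the knockout-labelled pair. With the sham arrays exchanged they were 4.94 and 3.96, so the order of the genotypes held and the gap narrowed. The knockout-labelled array was 3.52-fold lower than the wild-type array after ischemia-reperfusion, against a sham signal 1.78-fold higher.

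Cyp4a31, a close relative in the same gene cluster on chromosome 4, behaved otherwise. On the probe set used its log2 signals were 11.35, 12.78, 12.56 and 12.41, so that the wild-type sham array alone was low and the other arrays lay within 0.38 of each other. The ratio to sham was therefore 1.43 in wild type and -0.15 in the knockout-labelled pair, and the sham arrays differed by 1.20, or 2.30-fold. With the other sham array as control the wild-type ratio fell to 0.23 and the knockout-labelled one became 1.05. A second probe set of Cyp4a31 read 10.18, 11.57, 10.68 and 10.20, with ratios to sham of 1.40 and -0.48 and a sham difference of 0.50, and there the wild-type ischemia-reperfusion array alone stood apart. The wild-type increase was thus seen on both probe sets, whereas the sham difference past 2-fold was seen on 1 of them. Cyp4a genes are near copies, and a probe set of one may bind transcripts of another.

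The remaining Cyp4 genes moved less. Cyp4v3, a fatty acid hydroxylase whose human counterpart is mutated in a crystalline eye dystrophy, had log2 signals of 7.46, 7.69, 7.26 and 8.35 on the probe set used. It was 2.13-fold higher in the knockout-labelled pair, but its other probe set, with 5.91, 6.02, 6.05 and 6.44, gave a log2 ratio of only 0.39. Cyp4b1, which hydroxylates fatty acids and activates some toxins, read 14.53, 14.22, 14.45 and 13.88, close to the highest signal on the arrays, 14.97. Both ischemia-reperfusion arrays were below both sham arrays, with ratios of -0.31 and -0.57, under 2-fold. Cyp4f13 and Cyp4f16, of the subfamily that inactivates leukotrienes, had ratios of 0.17 and 0.27 in wild type and -0.24 and 0.54 in the knockout-labelled pair. Cyp4f14 and Cyp4f15 were over the floor on 3 of 4 arrays, and neither passed 2-fold with signals raised to the floor, and Cyp4f18, Cyp4f39 and Cyp4x1 were below the floor on all arrays.

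**Figure D3:**
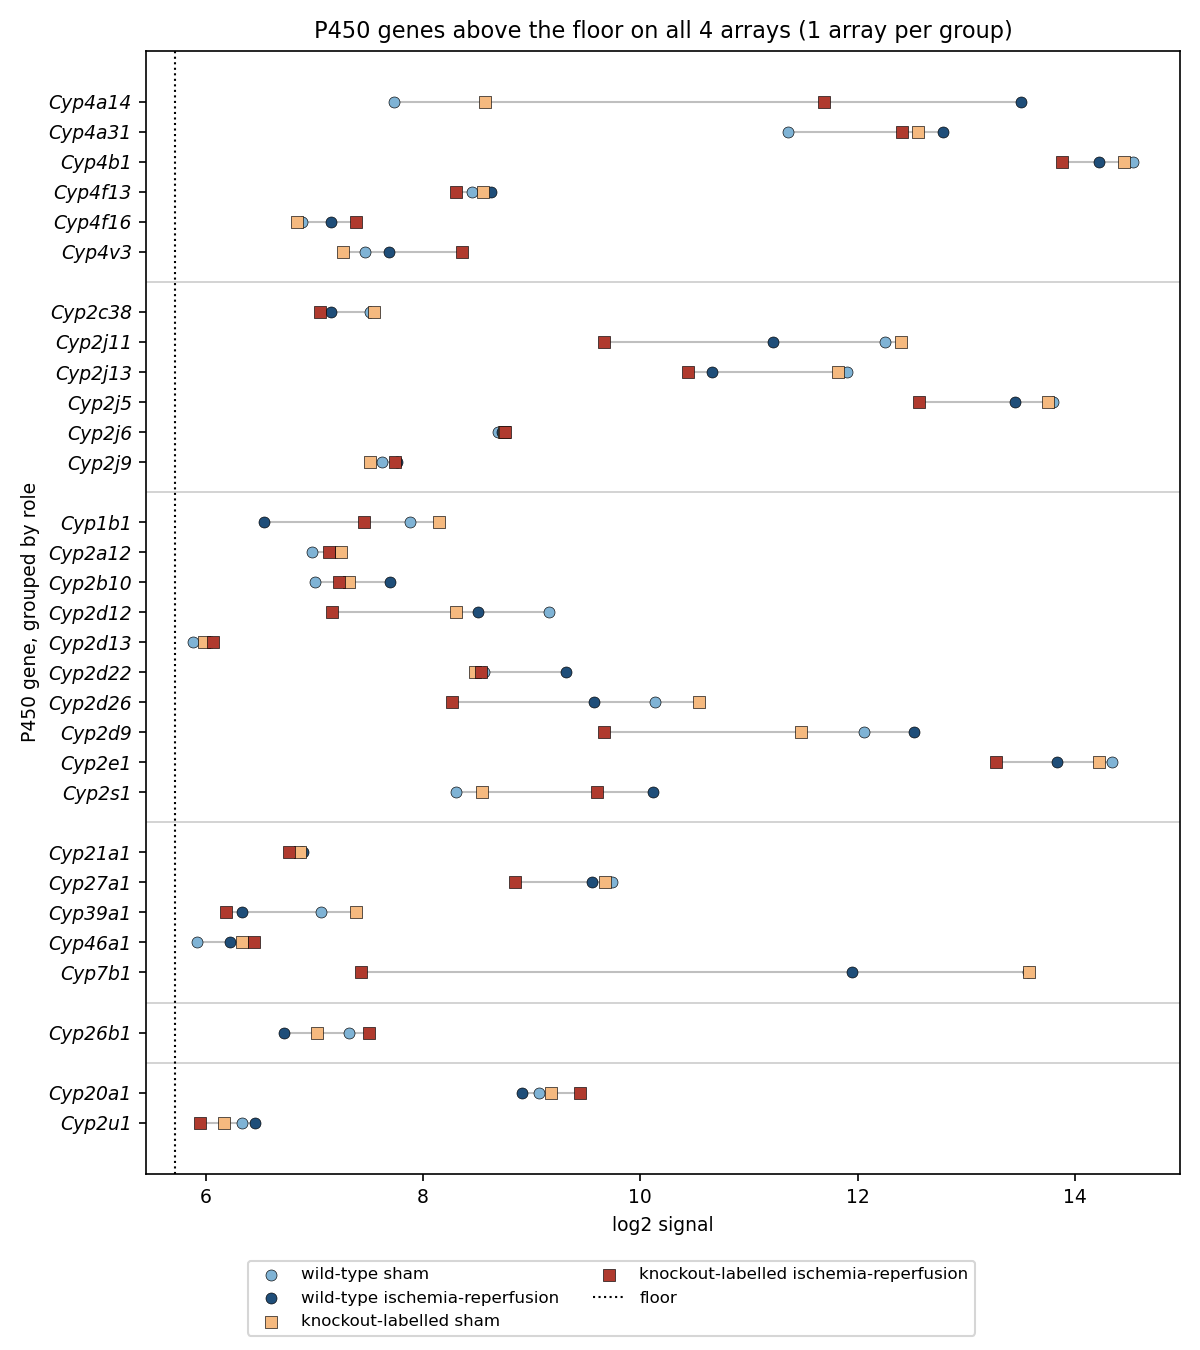
Log2 signal of the 30 P450 genes above the floor on all 4 arrays, 1 row per gene grouped by role, with 1 point per array; circles are wild type, squares are knockout-labelled, pale colours are sham and dark colours ischemia-reperfusion, and the dotted line is the floor at 5.72. Cyp7b1 runs from 7.43 to 13.57 and Cyp4a14 from 7.73 to 13.51, while Cyp2j6 lies between 8.69 and 8.75.

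Other PPAR alpha targets were read beside Cyp4a14. Of 12 measured genes of that list 6 were higher and 0 lower in wild type, with a median of 0.74, and 4 were higher and 1 lower in the knockout-labelled pair, with a median of 0.39. Plin2, a lipid droplet coat protein, was higher in both, with ratios of 2.39 and 2.81. So was Acot1, an acyl-CoA thioesterase, with 1.25 and 1.08. Vnn1, a pantetheinase, had 1.49 and 0.22, and the peroxisomal thiolase gene Acaa1b 1.35 and 0.44. Cpt2 had 1.02 and 0.15, and Slc25a20 1.11 and 0.66. Angptl4 had 0.19 and 1.68. Acadm, the 1 lower gene, had -0.35 and -1.57. Pdk4, a kinase that spares glucose, had -0.17 in wild type and 3.31 in the knockout-labelled pair. Its log2 signals were 9.53, 9.36, 8.14 and 11.45. The sham arrays thus differed by -1.39, knockout-labelled minus wild type, and the ratios of Pdk4 rest on unlike sham signals. The receptor Ppara itself had log2 signals of 9.46, 10.17, 9.58 and 9.78, with ratios of 0.71 and 0.20. The genes of the list thus did not all move with Cyp4a14, and the part of PPAR alpha in these values was not tested.

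The Cyp2j and Cyp2c subfamilies hold enzymes that epoxidise arachidonic acid, and 16 of their members were read. In wild type 2 of 9 measured were lower at 2-fold and in the knockout-labelled pair 3 of 11, all of them Cyp2j, and none was higher. Over all genes 2.18% were lower and 2.06% higher in wild type, and 6.89% and 6.06% in the knockout-labelled pair. Cyp2j5, an abundant epoxygenase of mouse kidney tubules, had log2 signals of 13.80, 13.45, 13.75 and 12.56, with ratios of -0.35 and -1.19. Its other probe set read 11.29, 10.26, 11.09 and 8.75 and gave larger ratios, -1.03 and -2.34. The order of the arrays was the same on both, with the knockout-labelled ischemia-reperfusion array lowest.

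Cyp2j11 had the largest decline of the subfamily in the knockout-labelled pair and Cyp2j13 in wild type, on the probe sets used. Cyp2j11 had log2 signals of 12.25, 11.22, 12.39 and 9.66, so both ischemia-reperfusion arrays were below both sham arrays. It was 2.03-fold lower in wild type and 6.64-fold lower in the knockout-labelled pair. Cyp2j13, an epoxygenase with higher expression in male kidney, read 11.90, 10.66, 11.82 and 10.44. Here the genotypes differed little, with decreases of 2.36-fold and 2.60-fold.

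Their neighbours Cyp2j6 and Cyp2j9 did not share this decline on the probe sets used. Cyp2j6 read 8.69, 8.73, 8.75 and 8.75, a range smaller than the technical SD. Its other probe set read 8.27, 7.71, 8.17 and 7.24, with ratios of -0.55 and -0.93, so the probe sets of Cyp2j6 disagreed. Cyp2j9 read 7.62, 7.76, 7.52 and 7.74. The 5 Cyp2j members lie in a single cluster of 7 P450 genes on chromosome 4 of the RefSeq gene table, in the order Cyp2j13, Cyp2j12, Cyp2j11, Cyp2j8, Cyp2j6, Cyp2j9 and Cyp2j5. In the knockout-labelled pair the genes past 2-fold thus stood at both ends of the cluster.

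The 250 bases before the start of Cyp2j11 and of Cyp2j6 are printed as those of a gene lower at 2-fold in both pairs and of a gene of the same cluster that was not past 2-fold on either probe set. They are RefSeq sequences of GRCm38.p6 on the minus strand, at chr4:96348681-96348930 for Cyp2j11 and chr4:96553652-96553901 for Cyp2j6, written 5′ to 3′. Capitals would mark a match to a motif searched here, and neither stretch holds one.
Cyp2j11: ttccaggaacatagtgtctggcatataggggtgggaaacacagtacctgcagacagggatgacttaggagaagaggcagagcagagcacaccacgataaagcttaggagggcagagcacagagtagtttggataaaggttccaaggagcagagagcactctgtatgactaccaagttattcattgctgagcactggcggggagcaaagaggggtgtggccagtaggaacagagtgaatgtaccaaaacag
Cyp2j6: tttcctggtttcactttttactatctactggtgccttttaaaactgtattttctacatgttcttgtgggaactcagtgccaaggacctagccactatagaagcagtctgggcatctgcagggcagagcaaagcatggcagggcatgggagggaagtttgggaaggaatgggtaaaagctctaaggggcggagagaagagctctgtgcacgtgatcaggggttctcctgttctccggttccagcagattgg

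Cyp2c23, also named Cyp2c44, an epoxygenase of the kidney tubule, was read by 1 probe set of the _s_at type, which can bind more than 1 transcript. Its log2 signals were 6.11, 6.43, 6.38 and 5.17, near the floor, with ratios of 0.32 in wild type and -0.66 in the knockout-labelled pair. As the last value is below the floor, the latter is a bound of at least 1.58-fold lower, and with a floor at the 30th percentile the ratio was -1.21. Cyp2c38 read 7.51, 7.15, 7.55 and 7.05, with both ischemia-reperfusion arrays below both sham arrays by less than 2-fold. Cyp2c50, Cyp2c55, Cyp2c68 and Cyp2c70 were over the floor on 1 to 3 arrays, none past 2-fold with signals raised to the floor. Cyp2c29, Cyp2c37, Cyp2c39, Cyp2c54 and Cyp2c65 were below it on all arrays.

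In the rest of the arachidonic acid pathway 9 of 10 genes read were measured. None was past 2-fold in wild type, and Hpgd, which breaks down prostaglandins, was lower in the knockout-labelled pair with log2 signals of 7.88, 7.12, 8.71 and 6.04. Ephx2, the soluble epoxide hydrolase that turns epoxides of arachidonic acid into diols, read 12.81, 12.94, 12.99 and 11.93. It was thus lower by 1.07 in the knockout-labelled pair and differed by 0.13 in wild type. Ephx1, the microsomal epoxide hydrolase, read 9.89, 8.88, 8.87 and 8.86, with the wild-type sham array alone high.

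**Figure D4:**
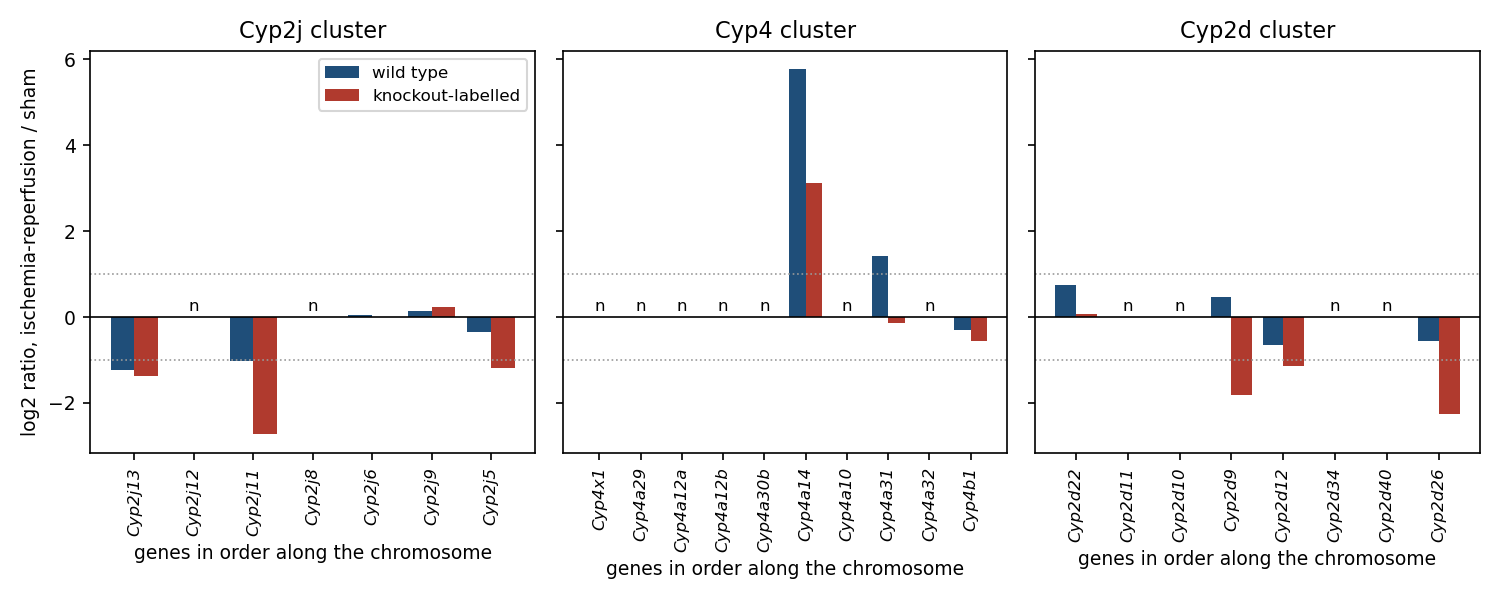
Log2 ratio of ischemia-reperfusion to sham for the P450 genes of 3 clusters in their order along the chromosome, blue for wild type and red for the knockout-labelled pair; the letter n marks genes that are no members or were below the floor on all arrays, and dotted lines mark 2-fold. In the Cyp2j cluster the genes at both ends were past 2-fold lower in the knockout-labelled pair, in the Cyp4 cluster Cyp4a14 and Cyp4a31 were higher in wild type, and in the Cyp2d cluster the red bars of Cyp2d9, Cyp2d12 and Cyp2d26 reach below 2-fold.

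Enzymes known mainly for foreign compounds, of the families Cyp1, Cyp2 and Cyp3, made up 25 members, of which 14 were measured in each pair. In wild type 1 was higher and 1 lower at 2-fold, beside 2.06% and 2.18% of all genes. In the knockout-labelled pair 1 was higher and 3 lower, beside 6.06% and 6.89% of all genes. The share higher there, 7.14%, was near that of all genes. The 3 lower ones were Cyp2d genes. Cyp2d9, a testosterone hydroxylase of male mice, had log2 signals of 12.06, 12.52, 11.48 and 9.67. The wild-type ischemia-reperfusion array was thus the highest of the 4 and the knockout-labelled one the lowest, 7.20-fold apart. Its ratios to sham were 0.46 and -1.81. With the sham arrays exchanged they were 1.04 and -2.39.

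Cyp2d26 read 10.13, 9.57, 10.54 and 8.27 and was 1.48-fold lower in wild type and 4.82-fold lower in the knockout-labelled pair. Cyp2d12 read 9.16, 8.50, 8.31 and 7.17, with both sham arrays differing already by -0.85. Its ratio in the knockout-labelled pair was -1.14 against its own sham array and -1.99 against the wild-type sham array. Cyp2d22, in contrast, was higher in wild-type ischemia-reperfusion than on the other arrays, with 8.56, 9.32, 8.48 and 8.54, and its other probe set, with 8.55, 9.39, 8.36 and 8.18, had the same order of treatments in wild type. Cyp2d13 read 5.89, 6.05, 5.99 and 6.07, near the floor, and stayed within 0.16 of sham in both pairs. Its other probe set was below the floor on all arrays. Cyp2d13 has no place in the gene order used here, which holds only protein-coding genes. Cyp2d10, Cyp2d34 and Cyp2d40 were below the floor on all arrays. The Cyp2d genes are near copies of each other, and the probe set of Cyp2d9 is of the _a_at type, so signals of related transcripts cannot be told apart here.

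The 250 bases before the start of Cyp2d9 and Cyp2d26, the Cyp2d genes with the lowest ratios in the knockout-labelled pair, are printed from the RefSeq sequences of GRCm38.p6, 5′ to 3′. Cyp2d9 lies on the plus strand at chr15:82452127-82452376 and Cyp2d26 on the minus strand at chr15:82794246-82794495. Capitals mark TTTATA, which reads TATAAA on the other strand, at position -28 of Cyp2d9 and -31 of Cyp2d26. In Cyp2d9 they also mark a direct repeat of AGGNCA with 1 base between at position -54, a form that receptors such as HNF4 and PPAR bind.
Cyp2d9: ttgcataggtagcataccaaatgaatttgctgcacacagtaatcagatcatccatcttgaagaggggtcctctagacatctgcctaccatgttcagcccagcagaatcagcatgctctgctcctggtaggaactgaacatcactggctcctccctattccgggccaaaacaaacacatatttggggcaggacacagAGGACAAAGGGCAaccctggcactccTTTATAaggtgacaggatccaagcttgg
Cyp2d26: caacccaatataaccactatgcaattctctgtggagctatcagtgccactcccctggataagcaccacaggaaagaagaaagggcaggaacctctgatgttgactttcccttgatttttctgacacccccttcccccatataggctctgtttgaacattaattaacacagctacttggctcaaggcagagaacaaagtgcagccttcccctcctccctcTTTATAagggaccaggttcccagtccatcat

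Promoters of the same length were in the table for 50 of the 68 members, 57 sequences in all counting alternative starts. The direct repeat was found in 3 of them, those of Cyp2d9, Cyp2d10 and Cyp2d40, with the same letters in each, and in 0.338% of all 32851 promoters. Only Cyp2d9 of these was over the floor. TATAAA, on either strand, was in 33.3% of the members' promoters and 12.4% of all. CAAAGTCCA, a sequence known from HNF4 binding, was in 6, those of Cyp3a16, Cyp3a11, Cyp8b1, Cyp2c65, Cyp2c68 and Cyp2c70, and in 0.384% of all promoters. None of these 6 genes was over the floor on all 4 arrays. TTGCGTG, a core of the site of the dioxin receptor Ahr, was in 0 of the 57 and in 0.925% of all. Hnf4a, which encodes HNF4 alpha, had log2 signals of 13.02, 13.12, 13.22 and 12.62, and 0 of 11 measured regulators were past 2-fold in either pair.

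Cyp2e1, which oxidises ethanol and small toxins and depends on androgen in mouse kidney, read 14.34, 13.84, 14.22 and 13.27. Both ischemia-reperfusion arrays were below both sham arrays, with ratios of -0.51 and -0.95, under 2-fold and close to the highest signals on the arrays. Cyp2s1, an epithelial enzyme induced through Ahr, went up, with 8.30, 10.11, 8.54 and 9.60. It was 3.51-fold higher in wild type and 2.08-fold higher in the knockout-labelled pair, and both ischemia-reperfusion arrays lay above both sham arrays. Other Ahr targets did not do so: Cyp1a1, with 6.24, 6.15, 6.35 and 5.66, and Cyp1a2, with 5.83, 5.79, 5.86 and 5.50, lay near the floor, and Ahr itself had ratios of 0.17 and 0.01.

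Cyp1b1, an Ahr target that hydroxylates oestrogens and is known from stromal and vascular cells, read 7.88, 6.54, 8.15 and 7.46. It was 2.54-fold lower in wild type and 1.61-fold lower in the knockout-labelled pair. A second probe set read 5.70, 4.91, 6.54 and 5.45, below the floor on 3 arrays, so it gives no ratio in wild type and one of -0.82 or lower in the knockout-labelled pair. The last probe set was below the floor throughout. Markers of endothelium and fibroblasts moved beside it. Of endothelial genes 2 of 4 were lower in wild type and 1 of 4 in the knockout-labelled pair, with medians of -1.25 and -0.04. Of fibroblast genes 2 of 3 were lower in each pair. Over all genes 2.18% and 6.89% were lower. The summed linear signals of the endothelial list were 1822, 474, 1544 and 1217, and those of the fibroblast list 1614, 445, 1098 and 542. Pecam1 was below the floor in wild-type ischemia-reperfusion alone. Their part in the Cyp1b1 values was not tested.

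Cyp2b10, a classic target of the receptor CAR, gave values that depend on the probe set. The one used had log2 signals of 7.01, 7.70, 7.32 and 7.23, with ratios of 0.69 in wild type and -0.09 in the knockout-labelled pair. The second read 5.68, 8.11, 5.14 and 6.33, with ratios of at least 2.38 and 0.61, and the third 4.79, 6.89, 4.44 and 5.25, with a ratio of at least 1.17 in wild type. These are bounds, because the sham signals of both probe sets are below the floor. The wild-type ischemia-reperfusion array was highest on all 3 probe sets, but only the last 2, both of the _s_at type, passed 2-fold. CAR itself, Nr1i3, was below the floor on all arrays.

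The other members of this group were low or steady. Cyp2a12 read 6.98, 7.20, 7.24 and 7.14. Cyp3a13 was over the floor on 1 array, with 4.32, 4.42, 4.32 and 6.18, which makes it at least 1.37-fold higher in knockout-labelled ischemia-reperfusion. Cyp2f2 was over the floor on 1 array, with 6.01, 5.70, 4.94 and 5.15, which makes it at least 1.22-fold lower in knockout-labelled sham than in wild-type sham. Cyp2g1, with 5.58, 5.73, 5.94 and 5.82, was near the floor on all arrays. Cyp3a11, Cyp3a16, Cyp3a25, Cyp3a44, Cyp2b9, Cyp2b13 and Cyp2b19, genes known mainly from liver or skin, were below the floor on all arrays.

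**Figure D5:**
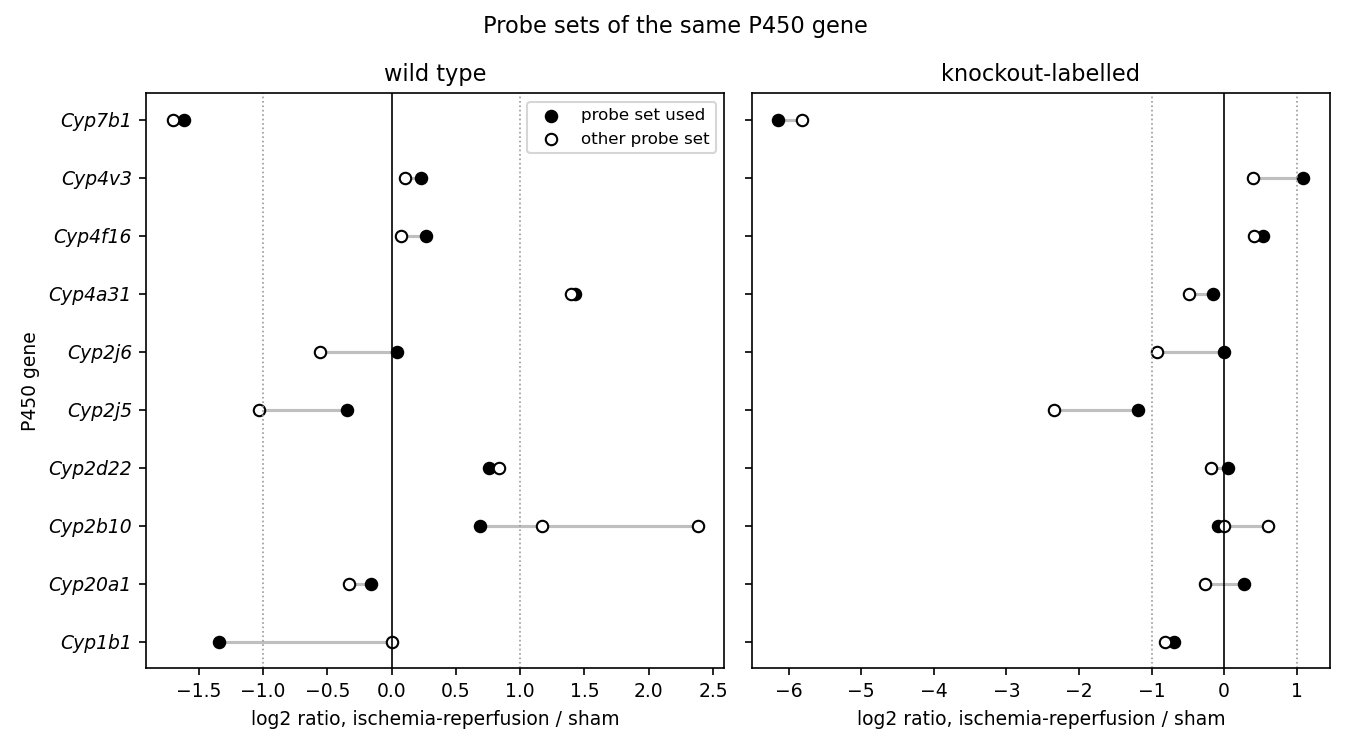
Log2 ratio of ischemia-reperfusion to sham, with signals raised to the floor, for each probe set of the P450 genes with at least 2 probe sets that reach the floor on some array, wild type on the left and the knockout-labelled pair on the right, each with its own horizontal scale. Filled points are the probe sets used; Cyp2b10 spans 0.69 to 2.38, the latter a lower bound, in wild type and Cyp2j5 spans -2.34 to -1.19 in the knockout-labelled pair, while the probe sets of Cyp7b1 lie close together.

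Enzymes of cholesterol, bile acids and steroids made up 11 members, and 8 were measured in each pair. Cyp7b1, an oxysterol hydroxylase with high expression in male mouse kidney, had log2 signals of 13.57, 11.95, 13.57 and 7.43. The sham arrays were equal within 0.01, the wild-type ischemia-reperfusion array was lower and the knockout-labelled one far lower. It was 3.07-fold lower in wild type and 70.7-fold lower in the knockout-labelled pair, the largest difference of responses among the P450 genes, -4.52. A second probe set read 13.07, 11.37, 12.91 and 7.09, with ratios of -1.70 and -5.82. The third was below the floor on all arrays and carries no level.

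Cyp39a1, another oxysterol hydroxylase, read 7.06, 6.33, 7.38 and 6.19, with decreases of 1.66-fold in wild type and 2.29-fold in the knockout-labelled pair. With the sham arrays exchanged the decreases were on the other side of 2-fold, with log2 ratios of -1.05 and -0.87. Cyp27a1, the mitochondrial sterol hydroxylase, read 9.74, 9.55, 9.68 and 8.85 and was lowest in knockout-labelled ischemia-reperfusion, by 0.83 against its sham array. Cyp21a1 and Cyp46a1, known from adrenal and brain, stayed within 0.30 of sham in both pairs. Cyp11b2, Cyp17a1 and Cyp8b1 lay near the floor, each below it on 1 array, and did not pass 2-fold with signals raised to it, and Cyp11a1, Cyp11b1 and Cyp7a1 were below it on all arrays.

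Cyp7b1, Cyp2e1 and Cyp2j13 are examples, not a full list, of members that depend on androgen in male kidney. Other such genes were read beside them. Of 5 androgen-regulated genes outside the family, 1 was lower at 2-fold in wild type and 4 in the knockout-labelled pair. Over all genes 2.18% and 6.89% were lower. The medians of the 5 genes were -0.80 and -2.20. Slc7a13, a transporter of the last part of the proximal tubule, read 13.77, 11.79, 13.80 and 8.98, the same order of arrays as Cyp7b1. Slco1a1, an organic anion transporter, had ratios of -0.80 and -2.20, and Acsm3, an acyl-CoA synthetase, -0.68 and -2.42. Kap, the kidney androgen-regulated protein, read 14.97, 14.93, 14.97 and 14.86, at the top of the signal range. The proximal tubule list, which also holds Kap and Slc7a13, had medians of -0.49 and -1.23. Cyp2d9, the testosterone hydroxylase of male mice, had ratios of 0.46 and -1.81. The part of androgen in these values was not tested.

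Retinoic acid and vitamin D enzymes were 3 members, of which only Cyp26b1 was over the floor. Cyp26b1, which breaks down retinoic acid, read 7.32, 6.72, 7.03 and 7.50. It was lower than sham by 0.60 in wild type and higher by 0.48 in the knockout-labelled pair, each under 2-fold, and the difference of the responses was 1.07. Cyp26a1 and Cyp2r1, the latter a vitamin D hydroxylase, were below the floor on all arrays. Among the members with no group, Cyp20a1 read 9.07, 8.91, 9.17 and 9.44, and Cyp2u1 6.34, 6.46, 6.17 and 5.95.

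For the partners of the P450 enzymes 11 genes of electron supply, haem synthesis and epoxide hydrolysis were listed, and 9 were read. P450 reductase was not among the 9. In wild type 0 were higher and 1, Ephx1, lower, beside 2.06% and 2.18% of all genes. In the knockout-labelled pair 1, Alas1, was higher and 2, Ephx2 and Cyb5b, lower, beside 6.06% and 6.89% of all genes. The medians were -0.04 and -0.20. Alas1, which sets the rate of haem synthesis, read 10.89, 10.96, 10.09 and 11.97, highest in knockout-labelled ischemia-reperfusion. Cyb5b, a cytochrome b5 of mitochondria, read 12.17, 11.74, 12.24 and 11.18. Fdx1, the ferredoxin of mitochondrial P450 enzymes, was within 0.20 of sham in both pairs.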

How the data were processed

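The deposited values are log2 signals per probe set on Affymetrix expression arrays, 1 column for each of 4 arrays; that the scale is log2 was read from the values, 2.51 to 14.97. Per the submitters' processing notes MAS5 was used, with no version given; the scaling and any filter are not given in the sources used here. Gene names came from the array annotation; all 68 members matched a RefSeq table of GRCm38.p6 by Entrez identifier, and its gene order and promoter sequences were used.

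Each gene was read from the probe set with the highest mean log2 signal, one with the suffix _x_at only where there was no other. Log2 ratios were taken after raising signals to the floor at the 40th percentile, 5.72 or a linear signal of 52.8. A cluster is a run of P450 genes with at most 2 other protein-coding genes between neighbours. Named members were those at 2-fold or more in a comparison, up to 30 each, the 10 with the highest mean signal and their other probe sets; the remaining members were named, after their values were seen, to account for all of them. Listed genes outside the family were named at 2-fold, as defining genes, or, for Fdx1, Star, Nr5a1, Ppara, Ahr, Hnf4a, Kap, Nr1i3, Pecam1, Hsd3b1 and Mc2r, after their values were seen. Members and lists were chosen with earlier results of these data known. The number of arrays limits the precision, and no test was made. Alternatives were other floors, a pseudocount, other choices of probe set, quantile normalisation and the other sham array as control. The code, in Python 3.11.15 with numpy 2.4.6 and pandas 2.3.3, was tested on simulated data.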

Additional observations from a re-analysis of the deposited data

Results flagged for a closer look

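For 3 members the log2 ratios to sham had opposite signs in the genotypes and differed by 2-fold or more between them. The difference of the responses, knockout-labelled minus wild type, was 1.07 on the log2 scale for Cyp26b1, -2.27 for Cyp2d9 and -1.58 for Cyp4a31. These differences were not tested, since each group is 1 array. For Cyp4a31 the knockout-labelled ratio, -0.15, was smaller in size than the technical SD of 0.39, and with the other sham array as control the ratios were 0.23 and 1.05, of the same sign. Its wild-type sham array alone was low on the probe set used and not on the other one.

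P450 probe sets outside the naming rule also had signals at 2-fold or more over sham. The probe sets of Cyp24a1, the enzyme that inactivates vitamin D, had log2 ratios of 2.999 and 2.16 in wild type, against 0.97 and 0.52 in the knockout-labelled pair. Cyp27b1, which makes active vitamin D, had a ratio of 4.91 in the knockout-labelled pair and of -0.86 or lower in wild type. Between the ischemia-reperfusion arrays it was higher by at least 5.64 in the knockout-labelled one. A probe set shared by Cyp4a31 and Cyp4a10 had 1.36 in wild type and -0.11 in the knockout-labelled pair. A probe set shared by Cyp4f37 and Cyp4f16 had 1.09 in the knockout-labelled pair and 0.03 in wild type.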

How the results depend on the processing

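The counts of members lower at 2-fold stayed within 1.5 times of the reported values under the 8 alternatives run. The medians moved by less than the technical SD, but that SD is of single genes and a wide margin for a median. With only genes over the floor in every array compared, the median between the ischemia-reperfusion arrays went from -0.14 to -0.27. That of the difference of responses went from -0.14 to -0.38. Small counts of higher members moved. Between the sham arrays 0 members were higher with the median over a gene's probe sets, where Cyp4a31 had 0.85. With that median Cyp2b10 was higher in wild type, with 1.98, and Cyp1b1 had no value there. Cyp2b10 and Cyp2j5 were then lower between the ischemia-reperfusion arrays, with -1.37 and -1.20. Their differences of responses were -1.37 and -1.07. With the floor at the 30th percentile 1 member, Cyp3a13, was higher between the ischemia-reperfusion arrays, and 2, Cyp3a13 and Cyp26b1, had a difference of responses above 2-fold. That last count was 0 with a pseudocount of 32, where Cyp26b1 had 0.87, and 0 with quantile normalisation, where it had 0.99. Of 238 recomputed values of members that were at 2-fold or more in a comparison, 0 changed sign and 12 fell under 2-fold. Cyp4a31, under 2-fold in the knockout-labelled pair, went from -0.15 to 1.05 with the other sham array, and Cyp2e1 from -0.95 to -1.07. That exchange was run for the comparisons of ischemia-reperfusion with sham alone. In the knockout-labelled pair Cyp2d12, Cyp39a1, Cyp2s1 and Cyp4v3 were under 2-fold with the pseudocount, with log2 ratios of -0.99, -0.92, 0.99 and 0.95. With plain _at probe sets Cyp2d9 had no value. Members near the floor, and Cyp2e1 and Cyp4b1 near the top of the signal range, are the least certain in size.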

Other observations

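There were 12 P450 probe sets outside the naming rule. Cyp51, the sterol demethylase of cholesterol synthesis, had log2 signals of 11.92, 10.19, 12.10 and 8.89 in the order used above, with ratios of -1.73 and -3.21, and was lower than sham on its other probe sets too, by 1.98 and 4.20 on one and by 1.18 and at least 1.46 on the other. Cyp4a12a, the androgen-dependent Cyp4a gene that makes most of the vasoconstrictor 20-HETE in male mice, read 12.22, 11.85, 12.90 and 11.51, with ratios of -0.37 and -1.39, so it did not follow its relative Cyp4a14. A probe set shared by Cyp2a5 and Cyp2a4 read 12.77, 13.65, 12.87 and 12.56, highest in wild-type ischemia-reperfusion, the array on which Cyp2b10, Cyp2d9 and Cyp2d22 were also highest.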
